A study of Mus musculus with 36 samples.

Results

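The miR-200 family consists of 5 microRNA (miRNA) hairpins in the mouse, and each hairpin gives a mature miRNA from its 5p arm and another from its 3p arm. All 10 mature miRNAs, named mmu-miR-200a, mmu-miR-200b, mmu-miR-429, mmu-miR-200c and mmu-miR-141 with the arm added, were picked by name from the 1915 mature miRNAs of the count table. Of the 10, 6 come from a cluster on chromosome 4 (miR-200b, miR-200a and miR-429, both arms) and 4 from a cluster on chromosome 6 (miR-200c and miR-141, both arms). Each of them occupied a single row of the table.

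Small RNA was sequenced from mouse kidneys that form cysts because Pkd1 or Pkd2, the genes of autosomal dominant polycystic kidney disease, is lost, which gave 2 models. All mice were on a C57BL/6 background and all carried floxed alleles, controls included. In the Pkd1 model the WT groups were Pkd1f/f and the KO groups Pkd1f/f:HoxB7-Cre, and in the Pkd2 model the WT groups were Pkd2f/f and the KO groups Pkd2f/f:HoxB7-Cre. WT animals were littermates without Cre. Kidneys were collected 1, 3 or 7 days after birth (P1, P3, P7), which made 12 groups of 3 libraries and 36 libraries in all. The HoxB7 promoter drives Cre in the collecting duct, whereas RNA was taken from kidney tissue as a whole, so that cells keeping the gene contributed to every library. In such RNA, fewer cells of a type and less RNA per cell cannot be told apart. The labels name neither sex nor a sequencing batch, and do not say whether the libraries of a group came from separate animals, so that p-values measure the spread between libraries. Small RNA reads do not cover the deleted exons, and the genotype labels were therefore not checked against the targeted genes.

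A miRNA pairs with its target messages mainly through the seed, bases 2 to 8 counted from its 5′ end, and lowers their stability and translation. The miR-200 family is known as a guardian of the epithelial state, because its 3p members target the messages of ZEB1 and ZEB2, transcription factors that silence E-cadherin and drive cells toward a mesenchymal form. ZEB factors in turn repress both miR-200 clusters, and in the kidney the family is known mainly from tubule epithelium, the collecting duct among it.

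The mature sequences below are shown because the family falls into groups by its seeds, and because the reads of near-identical members decide the comparison of the clusters. They were read from RefSeq for build GRCm38.p6, where all 10 members had an entry, and are written 5′ to 3′ with the seed in capitals. The first 3 share the seed AAUACUG, which 3 of the 1679 mature mouse sequences in that table carry, and the next 2 share AACACUG, which 2 of the 1679 carry. The prefix mmu is left out in the text that follows. The last 2 are the 5p arms of the chromosome 6 cluster, which have seeds of their own.
mmu-miR-200b-3p: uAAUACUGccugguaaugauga
mmu-miR-429-3p: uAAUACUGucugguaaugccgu
mmu-miR-200c-3p: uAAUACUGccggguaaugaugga
mmu-miR-200a-3p: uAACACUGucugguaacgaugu
mmu-miR-141-3p: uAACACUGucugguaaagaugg
mmu-miR-200c-5p: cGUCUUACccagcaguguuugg
mmu-miR-141-5p: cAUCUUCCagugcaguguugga
Each seed group of 3p arms thus has a member on both chromosomes. From miR-200b-3p to its chromosome 6 counterpart miR-200c-3p the substitutions over 22 compared bases are U11G and A22G, and from miR-200a-3p to miR-141-3p they are C17A and U22G, with positions counted from the 5′ end and the base of the first-named miRNA first. Only 1 of these differences in each pair lies in the first 18 bases. The mismatches allowed when reads were matched are not given in the sources used here, and a part of the reads of one member could have been counted for the other, which was not tested.

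On chromosome 4 (build GRCm38, minus strand) Mir200b lies at chr4:156055681-156055750, Mir200a at chr4:156054896-156054985 and Mir429 at chr4:156053905-156053987, a span of 1846 bases. All 3 hairpins are within an intron of the protein-coding gene Ttll10. Mir429 also falls in an exon, and the other hairpins in an intron, of the noncoding Gm13648 on the same strand. On chromosome 6, also on the minus strand, Mir200c lies at chr6:124718322-124718390 and Mir141 at chr6:124717914-124717985, a span of 477 bases. Both are in an intron of the noncoding Gm15884, Mir141 additionally in an exon of Gm29008, and the cluster sits between Phb2 and Ptpn6.

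Library totals ran from 12569939 to 32663566 reads. The reads of miR-10a-5p and miR-10b-5p took between 31.4% and 81.0% of a library, and the members of the miR-200 family together between 0.136% and 0.913%. Levels are given as CPM, counts scaled to a common library size, with library sizes corrected by the trimmed mean of M values. Several libraries stood apart from their group in the share of miR-10. At P7 these were WT replicate 3 of the Pkd1 model (57.9%, against 79.9% and 81.0% in its group) and WT replicate 1 of the Pkd2 model (66.4%, against 42.8% and 47.9%). Also at P7, KO replicates 1 and 2 of the Pkd2 model stood about equally far from replicate 3 (41.1% and 74.1%, against 57.4%). At P3 the libraries that stood apart were KO replicate 2 of the Pkd1 model (79.8%, against 31.4% and 40.6%), WT replicate 3 of that model (37.3%, against 57.4% and 63.8%) and WT replicate 1 of the Pkd2 model (71.9%, against 37.0% and 38.5%). Several results that rest on them are also given without them. All 6 kidney tubule miRNAs looked at were detected, among which miR-30a-5p had a median of 41677 CPM and miR-192-5p of 8913 CPM. Detection alone does not test the tissue label, because hepatocyte and striated muscle miRNAs were detected too.

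The 3p arm dominated every hairpin, and miR-200b-3p was the leading member. It ranged from 1156 to 3662 CPM over the 36 libraries with a median of 1924 CPM, and it ranked 40 by mean CPM among the 1915 miRNAs. miR-200a-3p followed with a median of 870 CPM (390 to 1892 CPM), then miR-429-3p with 690 CPM (444 to 1234 CPM), miR-141-3p with 425 CPM (171 to 1200.0 CPM) and miR-200c-3p with 126 CPM (81.5 to 264 CPM). The chromosome 6 3p arms were thus the least abundant of the 3p arms. Mature miRNAs are of nearly equal length, 21 to 23 bases here, so no scaling by length was applied, and differences in how well each sequence enters a library were not tested. miR-200b-3p was above miR-200a-3p in 36 of 36 libraries, and miR-141-3p was above miR-200c-3p in 36 of 36. In contrast, miR-200a-3p was above miR-429-3p in only 22 of 36 libraries, and the order of these neighbours did not hold beyond their spread. miR-429-3p exceeded miR-141-3p in 31 of 36.

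Among the 5p arms, miR-200a-5p was highest with a median of 49.5 CPM (26.4 to 77.1 CPM). miR-141-5p (median 16.7 CPM) and miR-200b-5p (median 13.4 CPM) overlapped, the first being higher in 26 of 36 libraries. miR-200c-5p had a median of 1.69 CPM and at least 6 reads in every library. miR-429-5p was at 0 reads in 3 libraries and at 3 reads or fewer in 13 of 36, all of them in the Pkd1 model, and 3 reads is the limit that a count of 0 allows; no fold change of miR-429-5p is given for that model. All 5p arms together made up 1.47% to 2.54% of the family's reads.

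**Figure D1:**
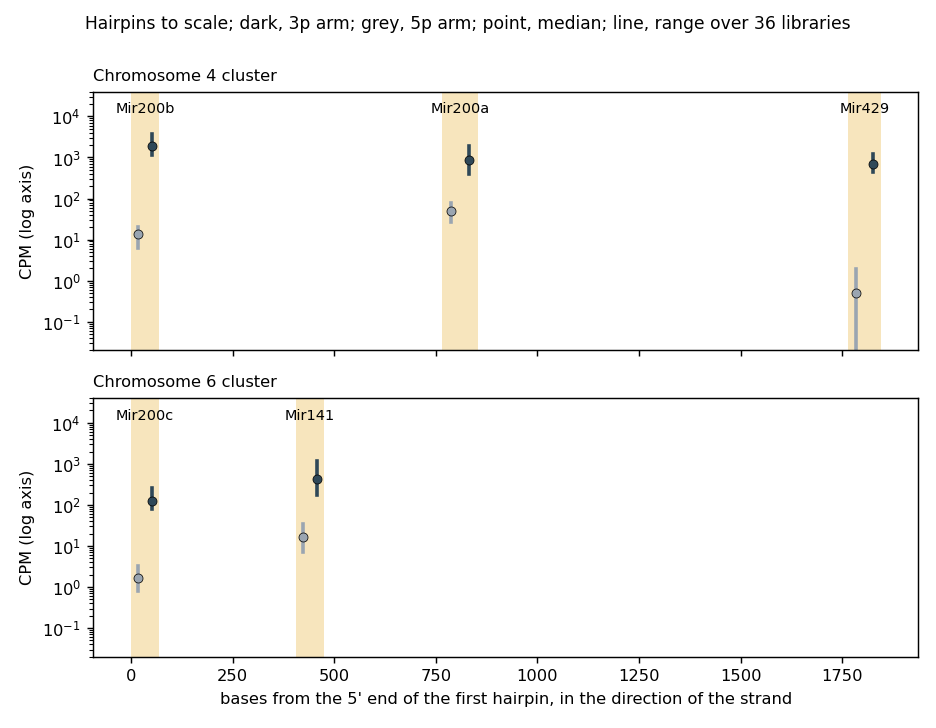
Levels of the miR-200 family along its clusters. The horizontal axis gives the distance in bases from the first hairpin's 5′ end, shaded boxes are hairpins to scale, and the vertical log axis gives CPM, with points for medians and lines for the range over 36 libraries (grey, 5p arm; dark, 3p arm; a line that reaches the lower edge includes 0; arms are placed schematically within the hairpin). The 3p arm lies above the 5p arm in all 5 hairpins, from a median of 1924 CPM for miR-200b-3p down to 0.488 CPM for miR-429-5p.

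Of all reads of the family, miR-200b-3p supplied 46.2%, miR-200a-3p 22.1%, miR-429-3p 16.7%, miR-141-3p 10.1% and miR-200c-3p 2.95%. The share of 1 member, miR-200a-3p, separated the models by a narrow gap, while the shares of all other members overlapped between them. The share of all miRNAs that separate the models is not given. miR-200a-3p made up 14.0% to 19.4% of the family in the 18 Pkd1 libraries and 19.5% to 26.7% in the 18 Pkd2 libraries, without overlap, and its level was 390 to 885 CPM in the former and 856 to 1892 CPM in the latter. Model and any difference in how the libraries of a model were prepared cannot be told apart, and no test of this difference was made.

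In Pkd2f/f WT kidneys 4 of the 5 3p arms rose from P1 to P7, and in Pkd1f/f kidneys 2 of the 5. The Pkd1f/f calls were lost when any of several libraries was left out, and also with library totals as the scaling. In Pkd2f/f kidneys the direction itself depended on the scaling of the libraries, as given after the values. This comparison describes the maturing kidney without a deletion. In Pkd2f/f kidneys, miR-200a-3p was at 1157, 1092 and 1010 CPM in the 3 libraries at P1 and at 1534, 1892 and 1710 CPM at P7, and the groups did not overlap. Its log2 fold change was 0.58 with a standard error (SE) of 0.14 and an adjusted p of 0.00645 (edgeR quasi-likelihood test, Benjamini-Hochberg over 746 miRNAs). In total 5 of the 10 members rose in the Pkd2 model, against 28.3% of all miRNAs called in either direction and 11.4% called higher. The others were miR-200b-3p (0.53 ± 0.16 SE, adjusted p = 0.0203), miR-429-3p (0.62 ± 0.19 SE, adjusted p = 0.023), miR-141-3p (0.61 ± 0.20 SE, adjusted p = 0.0274) and miR-200b-5p (0.39 ± 0.14 SE, adjusted p = 0.0477), all by the same edgeR test. The 4 other 5p arms and miR-200c-3p did not pass, with log2 fold changes from -0.24 for miR-141-5p to 0.22 for miR-200a-5p. The groups did not overlap for 6 members, as for 50% of all miRNAs. With 1 library left out at a time, 1 to 4 members were called (2, 3 and 1 without WT replicates 1, 2 and 3 at P1, and 4, 1 and 2 without those at P7), and miR-200a-3p was called each time. The share of all miRNAs called in each of these runs is not given.

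In Pkd1f/f kidneys, 2 of the 10 members rose from P1 to P7, where 21.5% of 706 miRNAs were called and 10.3% were called higher. miR-200a-3p was at 390, 415 and 573 CPM at P1 and at 595, 548 and 885 CPM at P7, or 0.63 ± 0.21 SE on the log2 scale (edgeR adjusted p = 0.0461). miR-141-3p was at 171, 231 and 449 CPM at P1 and at 409, 382 and 1200.0 CPM at P7, or 1.28 ± 0.42 SE on the log2 scale (edgeR adjusted p = 0.044). The P1 and P7 libraries overlapped for both, and the highest P7 value of both was that of WT replicate 3, the library that stood apart. Without it, neither passed the edgeR test: miR-200a-3p had a log2 fold change of 0.40 (adjusted p = 0.168) and miR-141-3p of 0.56 (adjusted p = 0.292). Neither was called without WT replicate 1 or 2 at P1, and without WT replicate 1 at P7 only miR-141-3p was. The ages did not overlap for miR-200b-3p, as for 33.3% of all miRNAs, but it did not pass (0.44 ± 0.15 SE, edgeR adjusted p = 0.0527).

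The direction of the rise with age in the Pkd2 model depended on the scaling of the libraries, as did the calls in the Pkd1 model. With library totals in place of the trimmed mean, the median log2 fold change of all miRNAs in the Pkd2 model was -0.78, a shift of -0.73, and the members that had risen stood between -0.32 (miR-200b-5p) and -0.055 (miR-429-3p), below 0 but above that median. In the same comparison, miRNAs of several cell type lists moved. Of 6 kidney tubule miRNAs, 5 rose in the Pkd2 model and 4 in the Pkd1 model, and their summed level went from 38096 to 43147 CPM at P1 to 76995 to 85039 CPM at P7 in Pkd2f/f kidneys, and from 49709 to 68566 CPM to 90172 to 97753 CPM in Pkd1f/f kidneys. Of 5 leukocyte miRNAs, 4 rose in Pkd1f/f (summed level 177 to 231 CPM at P1 and 314 to 496 CPM at P7) and 1 in Pkd2f/f kidneys (277 to 361 CPM and 353 to 465 CPM). All 4 striated muscle miRNAs were called lower at P7 in Pkd1f/f kidneys, but their sums overlapped. The sum ran from 18.2 to 1538.5 CPM at P1 (mean 537 ± 868 SD, n = 3) and from 35.5 to 52.6 CPM at P7. The lowest P1 library was thus below every P7 library, and the SD at P1 exceeded the mean. Both hepatocyte miRNAs were called lower in Pkd2f/f kidneys, where the highest sum was 289 CPM at P1 and 2.96 CPM at P7. Every P1 library was above every P7 library in this sum, but the SD at P1 again exceeded the mean (103 ± 161 SD, n = 3). Of the endothelial list 1 of 2 rose in each model, of the mesenchymal list 1 of 6 rose in Pkd1f/f and 1 of 6 fell in Pkd2f/f, of the erythroid list 1 of 3 rose in Pkd1f/f, and of the other epithelial list 1 of 7 fell in Pkd2f/f kidneys. The part of these lists in the change of the family was not tested.

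**Figure D2:**
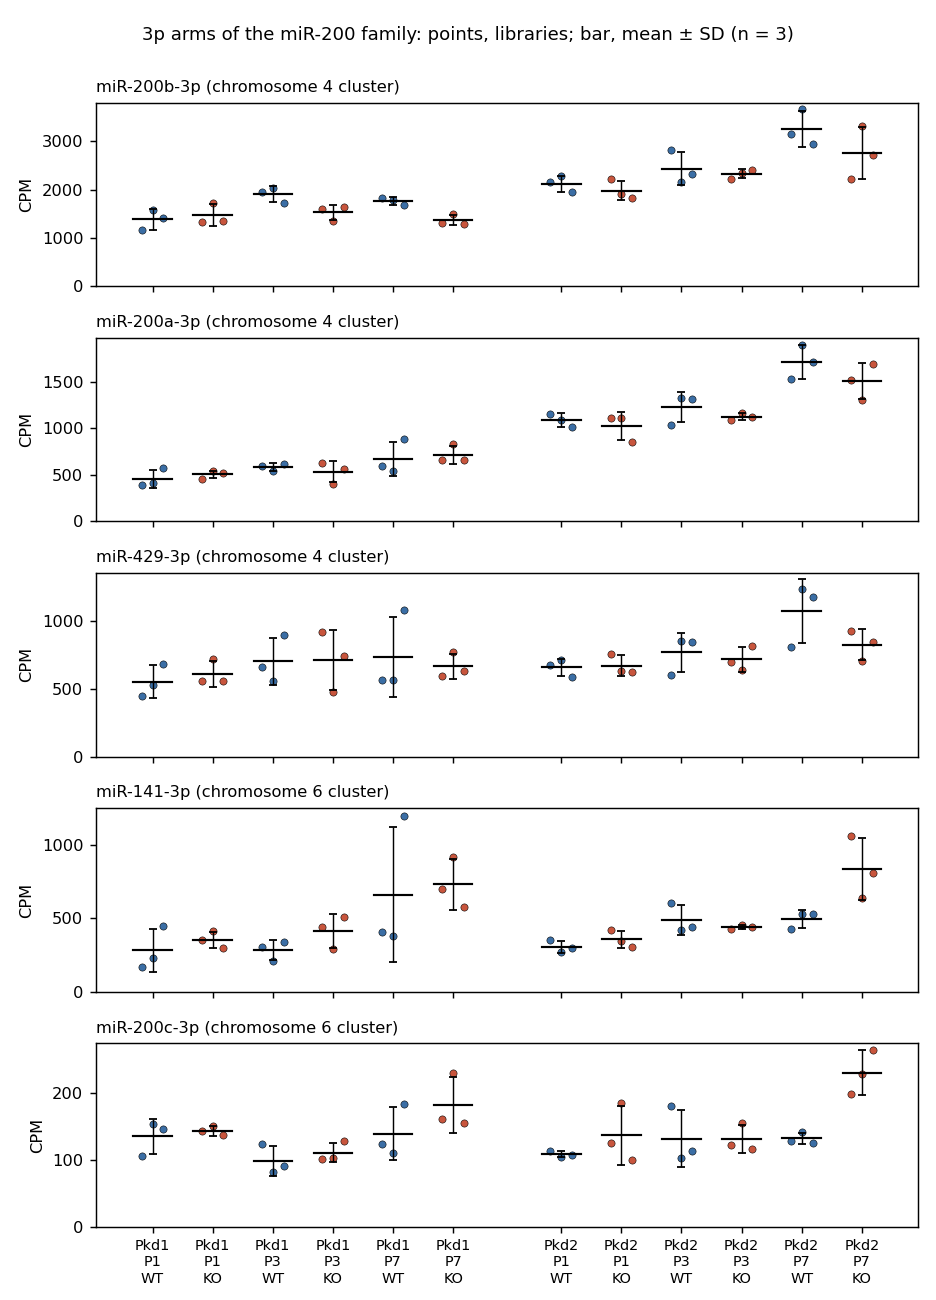
Levels of the 3p arms of the miR-200 family in CPM (vertical axes) in the 12 groups of model, age and genotype (horizontal axis). Points are libraries (blue, WT; red, KO) and bars the mean ± SD (n = 3); miR-141-3p and miR-200c-3p separate KO from WT in the Pkd2 model at P7, where the lowest KO library of miR-200c-3p (198 CPM) is above the highest WT library (142 CPM).

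The comparison of KO with WT at each age addressed the difference between genotypes as cysts grow. Only KO animals carried Cre, so the deletion and the Cre transgene cannot be told apart in it. In the Pkd2 model at P7, all 4 members of the chromosome 6 cluster rose in KO kidneys, with log2 fold changes of 0.82 to 0.95, and none of the 6 members of the chromosome 4 cluster passed the test. In this comparison 12.6% of the 746 miRNAs tested were called, and 8.98% of the 746 were called higher in KO, so that calls were frequent among all miRNAs too. No member passed the test at P1 or P3 in either model, or at P7 in the Pkd1 model.

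miR-200c-3p, which shares its seed with miR-200b-3p, was at 127, 142 and 125 CPM in the WT libraries of the Pkd2 model at P7 and at 198, 228 and 264 CPM in the KO libraries. This is 0.87 ± 0.22 SE on the log2 scale (edgeR adjusted p = 0.0175). miR-141-3p was at 426, 531 and 532 CPM in WT and at 1062, 641 and 809 CPM in KO, or 0.82 ± 0.20 SE on the log2 scale (edgeR adjusted p = 0.0163). Every KO library was above every WT library for both 3p arms. The 5p arms of the same hairpins moved alike, although they are far less abundant. miR-200c-5p was at 1.45, 1.68 and 1.41 CPM in WT and at 2.35, 3.32 and 2.79 CPM in KO (log2 fold change 0.95 ± 0.28 SE, edgeR adjusted p = 0.0348). miR-141-5p was at 19.5, 15.96 and 14.4 CPM in WT and at 22.4, 34.3 and 34.7 CPM in KO (0.93 ± 0.23 SE, edgeR adjusted p = 0.0163). The groups did not overlap for any of the 4, where 25.6% of all miRNAs did not overlap and 13.5% did so with KO higher.

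The log2 fold changes of the chromosome 4 members all lay below 0 in the same libraries, except that 1 of the 6 was above 0 without KO replicate 3, and 1 of the 6 when libraries were scaled by totals without miR-10, which moved the median of all miRNAs by 0.13. miR-200b-3p was at 3150, 3662 and 2942 CPM in WT and at 2230, 3307 and 2720 CPM in KO, and the groups overlapped. Its log2 fold change was -0.17, with a 95% interval from -0.48 to 0.14. For miR-200a-3p the log2 fold change was -0.12 (95% interval -0.40 to 0.16) and for miR-429-3p it was -0.31 (95% interval -0.68 to 0.062). The smallest edgeR adjusted p among the 6 was 0.308, and miR-200b-5p was the only one whose groups did not overlap, with KO lower. The fold changes of the chromosome 6 members lie outside these 3 intervals, but this leaves out their own SE. The difference between the clusters was not tested on fold changes.

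**Figure D3:**
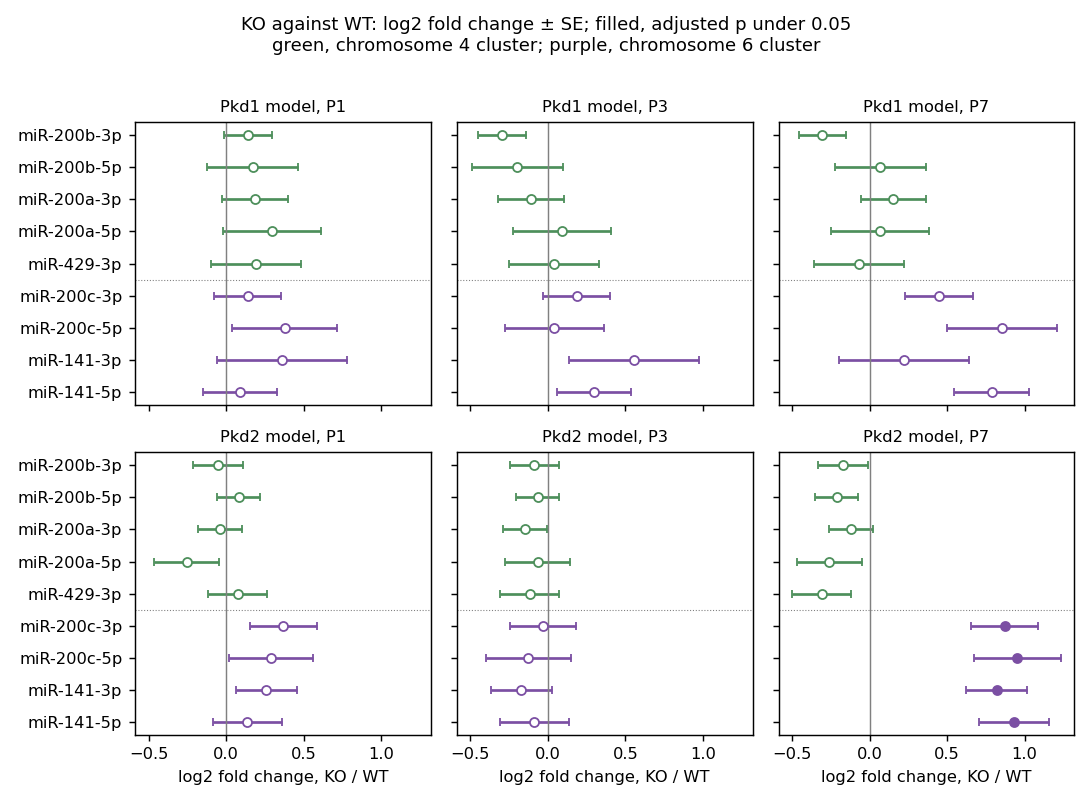
Log2 fold changes of KO against WT (horizontal axes) for 9 members in each model and age, with bars for ± SE and filled points for an adjusted p under 0.05 (green, chromosome 4 cluster; purple, chromosome 6 cluster; miR-429-5p is left out for its low counts). Only the 4 chromosome 6 members in the Pkd2 model at P7 are filled, at log2 fold changes of 0.82 to 0.95.

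These 4 calls rested on few libraries. Without 1 library at a time, between 0 and 4 members were called. The number was 0 without WT replicate 2, WT replicate 3 or KO replicate 3. Among the libraries that stood apart in miR-10, it was 1 without WT replicate 1, 3 without KO replicate 2 and 4 without KO replicate 1. The log2 fold changes of the 4 stayed between 0.61 and 1.11. The share of all miRNAs called in each of these runs is not given, so the loss is not shown to be particular to the family. With library totals as the scaling 0 were called, at log2 fold changes of 0.87 to 0.91.

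Other miRNAs moved in the same libraries. All 35 miRNAs of the 8 lists of cell type markers were tested. Of 7 other epithelial and ureteric-bud miRNAs, 4 rose in KO kidneys of the Pkd2 model at P7, with a list median log2 fold change of 1.38 against 0.02 for all miRNAs, and their summed level was 4699.9 to 5749 CPM in WT and 9059.9 to 16049 CPM in KO. Within it, miR-182-5p rose by 1.38 ± 0.32 SE on the log2 scale (edgeR adjusted p = 0.0159). Of 6 kidney tubule miRNAs, 4 fell, with a list median of -0.93, and their sum was 76995 to 85039 CPM in WT and 40921 to 80080.0 CPM in KO. miR-192-5p, a miRNA of tubule epithelium, fell by 1.13 on the log2 scale (edgeR adjusted p = 0.0392). No miRNA of the mesenchymal, endothelial, leukocyte, erythroid, striated muscle or hepatocyte lists passed the test. The sum of the erythroid list was nonetheless higher in every KO library (3447 to 5535 CPM) than in every WT library (2211 to 2681 CPM), and that of the endothelial list was 15571 to 23724 CPM in WT and 10549.7 to 15597 CPM in KO. The summed levels in WT and KO were 46425 to 73181 and 43956 to 85115 CPM for the mesenchymal list, 353 to 465 and 425 to 567 CPM for the leukocyte list, 18.4 to 19.3 and 26.4 to 105 CPM for the striated muscle list, and 1.00 to 2.96 and 2.63 to 14.5 CPM for the hepatocyte list. The part of any of these lists in the rise of the chromosome 6 cluster was not tested.

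In the Pkd1 model at P7, no member was called by edgeR or DESeq2, where edgeR called 0.425% of the 706 miRNAs. With any 1 library of that comparison left out, WT replicate 3 included, edgeR called no member. At an unadjusted p under 0.05 edgeR gave 2 members, both 5p arms of the chromosome 6 cluster, and 10.2% of all miRNAs. The smallest p was that of miR-141-5p, at 11.7, 7.28 and 10.4 CPM in WT and at 14.15, 20.8 and 14.0 CPM in KO (log2 fold change 0.79 ± 0.24 SE, edgeR adjusted p = 0.159). Its groups did not overlap, as was so for 16.4% of all miRNAs. miR-200c-5p was at 0.824, 2.01 and 0.928 CPM in WT and at 1.77, 2.66 and 1.84 CPM in KO, which overlapped (0.85 ± 0.36 SE, edgeR adjusted p = 0.417). miR-200c-3p was at 123, 110 and 183 CPM in WT and at 161, 229 and 154 CPM in KO, and the WT library that stood apart lay among the KO libraries (0.45 ± 0.22 SE, edgeR adjusted p = 0.51). The same library was the highest of all 6 for miR-141-3p, which was at 409, 382 and 1200.0 CPM in WT and at 699, 921 and 580 CPM in KO (0.22 ± 0.42 SE, edgeR adjusted p = 0.941). miR-200b-3p, the leading member, was lower in every KO library (1316, 1489 and 1299 CPM) than in every WT library (1825, 1793 and 1674 CPM), but the difference of -0.31 ± 0.15 SE on the log2 scale did not pass (edgeR adjusted p = 0.545). Of the other epithelial and ureteric-bud miRNAs 2 of 7 rose here, with a sum of 8604 to 9319 CPM in WT and 15585 to 20162 CPM in KO, and of the tubule miRNAs 0 of 6 passed, with a sum of 90172 to 97753 CPM in WT and 62921 to 77622 CPM in KO. Their part in the values of the family was not tested.

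Whether the KO effect, the difference of KO from WT, differed between ages or models was tested directly, and no member passed. In the Pkd2 model, the KO effect at P7 less the one at P1 was called for 0.536% of miRNAs, and the chromosome 6 members had differences of 0.50 to 0.80 on the log2 scale, with miR-141-5p at 0.80 ± 0.32 SE (edgeR adjusted p = 0.228). In the Pkd1 model, where 0.142% were called, miR-141-5p had 0.69 ± 0.34 SE (edgeR adjusted p = 0.42). For the KO effect at P7 in the Pkd1 model minus that in the Pkd2 model, over 775 miRNAs of which 0.387% were called, the chromosome 6 members lay between -0.61 and -0.08 (smallest edgeR adjusted p of the family 0.576). DESeq2 called no member in these comparisons either. A p above the threshold does not show that the effects were alike, and the rise at P7 in the Pkd2 model is not shown to be particular to that age or model.

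At P1 and P3 no miRNA passed the edgeR test in either model, a background of 0%, and DESeq2 called no member. At an unadjusted p under 0.05 edgeR gave 59 (8.36%) and 64 (9.07%) of 706 miRNAs in the Pkd1 model and 41 (5.5%) and 11 (1.47%) of 746 in the Pkd2 model, and 1 of them was a member, miR-429-5p in the Pkd2 model at P1. This low-count arm had 16, 31 and 21 reads in WT and 32, 25 and 94 in KO (edgeR adjusted p = 0.819). The reads overlapped, whereas the levels, 0.430, 0.740 and 0.469 CPM in WT and 0.764, 0.905 and 1.90 CPM in KO, did not, as for 13.4% of all miRNAs. No member was called at P3 in either model with any 1 library of that age left out, those that stood apart included. At P3 the groups of the Pkd1 model were apart for miR-200b-3p (lower in KO, -0.30 ± 0.15 SE) and for miR-141-5p (higher, 0.30 ± 0.24 SE), in a comparison in which 12.3% of all miRNAs were apart. At P3 in the Pkd2 model all 10 members had log2 fold changes below 0, from -0.55 to -0.031, as did most miRNAs (40.3% were above 0). For miR-141-3p and miR-200c-3p the highest library of that age and model was WT replicate 1, which stood apart (605 and 180 CPM).

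Averaged over the 3 ages, no member was called in either model by edgeR or DESeq2 (edgeR backgrounds of 0.425% in Pkd1 and 0.402% in Pkd2). The 4 chromosome 6 members were above 0 in both, at 0.26 to 0.42 in the Pkd1 model and 0.30 to 0.40 in the Pkd2 model. In the latter each had an unadjusted edgeR p under 0.05, as had 20.5% of all miRNAs, with adjusted p from 0.129 to 0.205. Without WT replicate 1 at P3, a library that stood apart, 2 were called, and the share of all miRNAs called then is not given. In the Pkd1 model 2 of the 4 had an unadjusted edgeR p under 0.05, as had 5.38% of all miRNAs.

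The balance of the clusters was then measured within each library, as the ratio of reads of a chromosome 4 member to reads of the chromosome 6 member with the same seed. Such a ratio does not depend on how libraries are scaled, but the uncertainty in assigning reads of near-identical members, stated beside the sequences, applies to it. In both models the ratio was lower in KO than in WT, for both pairs.

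For miR-200b-3p over miR-200c-3p at P7, the ratio was 24.7, 25.8 and 23.5 in WT and 11.3, 14.5 and 10.3 in KO of the Pkd2 model, a difference of 2.07-fold. In the Pkd1 model at the same age it was 14.8, 16.4 and 9.14 in WT and 8.20, 6.49 and 8.44 in KO, a difference of 1.70-fold. In both models every KO library lay below every WT library, and the exact permutation p of 0.1 for each is the smallest that 3 against 3 libraries allow. Over all ages, KO minus WT was -0.51 on the log2 scale in the Pkd2 model (adjusted p = 0.0155) and -0.43 in the Pkd1 model (adjusted p = 0.0155), in an exact two-sided permutation test with labels exchanged within ages (8000 arrangements, 9 against 9 libraries) and adjusted over 4 tests. The direction was the same at all 3 ages in both models, though at P1 in the Pkd1 model the difference was -0.014. The Pkd1 value kept its call without the WT library that stood apart: over all 18 libraries left out in turn it ran from -0.51 to -0.37 with a largest adjusted permutation p of 0.0285, and the Pkd2 value from -0.56 to -0.42 with a largest adjusted permutation p of 0.0253.

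For miR-200a-3p over miR-141-3p at P7, the ratio was 3.60, 3.56 and 3.21 in WT and 1.44, 2.03 and 2.09 in KO of the Pkd2 model, a difference of 1.89-fold with the groups apart. In the Pkd1 model it was 1.45, 1.43 and 0.738 in WT and 0.951, 0.902 and 1.13 in KO, and the WT library that stood apart was the lowest of the 6. Over all ages KO minus WT was -0.40 in the Pkd2 model (exact permutation, adjusted p = 0.0253) and -0.39 in the Pkd1 model (exact permutation, adjusted p = 0.0285). The Pkd1 difference was largest at P3 (-0.67), where the ratio was 1.95, 2.57 and 1.80 in WT and 1.42, 1.41 and 1.11 in KO, with the groups apart. The call over all ages was lost without any 1 of 6 libraries, namely P1 WT replicate 1, P1 KO replicates 1 and 2, P7 WT replicates 1 and 2, and P7 KO replicate 2 (values of -0.37 to -0.32, adjusted permutation p of up to 0.066). In the Pkd2 model the difference at P3 was 0.013 on the log2 scale, on the other side of 0. There WT replicate 1, which stood apart, had the lowest ratio of the 6 libraries, and the other WT libraries lay above every KO library. In WT, miR-141-3p was at 605, 423 and 439 CPM and miR-200a-3p at 1040, 1326 and 1315 CPM. In KO they were at 428, 457 and 442 CPM and at 1091, 1168 and 1121 CPM.

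**Figure D4:**
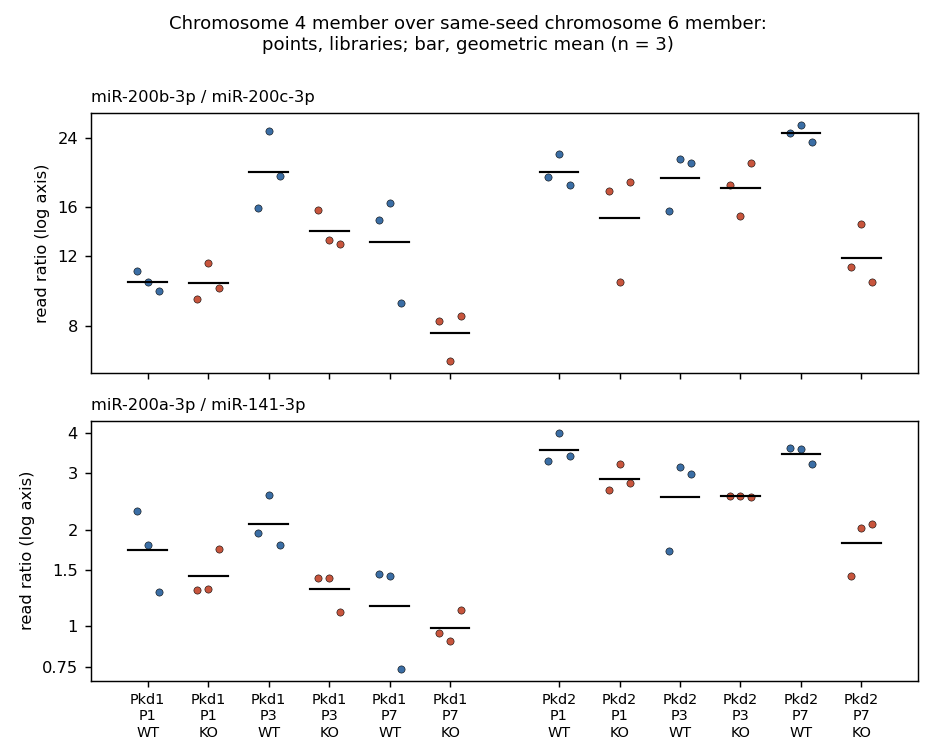
Ratio of reads within a library, miR-200b-3p over miR-200c-3p (upper panel) and miR-200a-3p over miR-141-3p (lower panel), on log axes, by group (blue, WT; red, KO). Points are libraries and bars geometric means (n = 3); at P7 in the Pkd2 model the upper ratio is 23.5 or more in WT and 14.5 or less in KO.

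With all members of a cluster summed, the chromosome 4 reads were 9.47 times the chromosome 6 reads in WT and 4.72 times in KO of the Pkd2 model at P7 (geometric means, n = 3 each), and 4.43 and 3.05 times in the Pkd1 model at P7. In the latter the groups overlapped: the ratio was 5.57, 5.88 and 2.65 in WT and 2.99, 2.69 and 3.51 in KO, and WT replicate 3, which stood apart, was the lowest of the 6 while the other WT libraries were above every KO library. The chromosome 6 cluster made up 9.56% ± 0.58 (SD, n = 3) of the family in WT and 17.7% ± 3.4 (SD, n = 3) in KO of the Pkd2 model at P7, and no KO library (14.4% or more) reached down to the WT libraries (10.2% or less). The share of 3p reads with the seed AACACUG did not separate the same groups, at 32.5% to 34.6% in WT and 31.5% to 43.6% in KO.

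With age in WT kidneys the ratios did not pass the test. miR-200b-3p over miR-200c-3p was 0.33 higher on the log2 scale at P7 than at P1 (exact permutation within models, 400 arrangements, p = 0.04, adjusted p = 0.08 over 2 tests; 0.46 with an adjusted permutation p of 0.01 without WT replicate 3 of Pkd1 at P7), and miR-200a-3p over miR-141-3p was 0.31 lower (-0.31, exact permutation adjusted p = 0.195).

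The arms of a hairpin come from the same precursor, and their ratio was compared between KO and WT for each of the 5 hairpins in both models. None of the 10 exact permutation tests passed, with p from 0.347 to 0.872 and all adjusted p at 0.872. Nothing is read from that of Mir429 in the Pkd1 model, where 13 of 18 libraries held 3 reads or fewer of the 5p arm. For Mir200a the 3p reads were 24.3 times the 5p reads in WT and 26.9 times in KO of the Pkd2 model at P7 (geometric means, n = 3 each), and for Mir141 the log2 ratio differed by -0.029 over all ages in that model. The ratio of arms in the Pkd2 model at P7 was 84.4 in WT and 80.5 in KO for Mir200c, and 29.9 in WT and 27.4 in KO for Mir141, whose arms had all risen.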

How the data were processed

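The authors removed adaptors, kept reads of at least 18 bases and counted them with miRDeep2 (version not given in the sources used here) against miRBase mature and hairpin sequences and mm10. The submitters' processing notes also name CASAVA 1.8.2 and HTSeq. The deposited values are raw read counts per pair of mature miRNA and hairpin, neither filtered nor normalized (2061 rows); for the 83 miRNAs listed under several hairpins the row with the most reads was used, and no sample column was left unmatched (0). Counts were tested with edgeR 4.0.16 (R 4.3.3), 18 libraries per model with 1 term per group, on miRNAs reaching 10 counts in 3 or more libraries (706 in Pkd1, 746 in Pkd2, 775 over all 36; the 10 members passed in each). A call is an adjusted p under 0.05 by the quasi-likelihood test. SE is the size of the log2 fold change over the square root of F. Ratios within libraries were tested with Python 3.11.15, 1 read being added to each arm for arm ratios.

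Alternatives were DESeq2 1.42.0, other scalings, no filter, the compared groups alone, a replicate block and each library left out. The study's thresholds (2-fold and unadjusted p) were also applied, to the edgeR fit used here. The members and the 8 marker lists were chosen with earlier results of these data known. Named are all 10 members, the 5 miRNAs most alike over libraries and up to 2 miRNAs per list with the most reads. The fit was tested on simulated data. The 95% intervals of log2 fold changes come from the SE and include the spread between libraries, whereas the limit for a count of 0 covers counting error only. None of the 36 pairs of libraries within a group was a copy: their counts differed by a chi-square of at least 33.3 times its degrees of freedom.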

Additional observations from a re-analysis of the deposited data

How the results depend on the processing

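The labels do not say what a replicate number marks, and whether numbers pair libraries is not settled. Over the 18 pairs of KO and WT libraries with the same number, deviations from the group means correlated from -0.49 to 0.46. Of these, 7 were above 0.1 and 11 below 0. With a replicate block, 3 of the 4 chromosome 6 members remained called in the Pkd2 model at P7. The share of all miRNAs called under that block is not given. The 4 ratio differences of KO and WT (-0.43, -0.51, -0.39 and -0.40) all lost their calls, with an adjusted permutation p of 0.0586 each. The block changes the p of these differences and cannot change their values.

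The cause of the changes below was not tested. The counts are of members alone, without the share of all miRNAs called under the same setting. They show how the calls move and are not set against a background. The study's thresholds were applied to the edgeR fit used here, whereas the study combined lists from edgeR and DESeq2, so these counts are not the study's own. They gave 0 members in the Pkd2 model at P7, 1 in Pkd2 at P1 and 1 in the Pkd2 difference of P7 and P1. For WT P7 against P1 they gave 1 in Pkd1 and 0 in Pkd2. Library totals gave 0 for Pkd2 at P7 and, for WT P7 against P1, 0 in Pkd1 and 1 in Pkd2 (called lower). For WT P7 against P1, DESeq2 size factors gave 1 in Pkd1, totals without miR-10 gave 1 in each model (called lower), no filter gave 0 in each, and the compared groups alone gave 0 in Pkd1. Leaving out 1 library gave 0 to 2 in Pkd1 and 1 to 4 in Pkd2 for WT P7 against P1, 0 to 4 for Pkd2 at P7, and 0 to 2 for Pkd2 averaged over ages (2 without WT replicate 1 at P3).

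Library totals turned WT P7 against P1 to -0.22 for miR-200b-3p in Pkd1, and in Pkd2 to -0.12 for miR-200a-3p, -0.19 for miR-200b-3p, -0.32 for miR-200b-5p, -0.055 for miR-429-3p and -0.072 for miR-141-3p. Totals without miR-10 turned miR-200b-3p to -0.0069 in Pkd1 and -0.0064 in Pkd2, and miR-200b-5p to -0.16 in Pkd2. The WT change of miR-200b-3p over miR-200c-3p ran from 0.25 to 0.46 with 1 library left out, passing without WT replicate 3 of Pkd1 at P7 (adjusted permutation p = 0.01), and the summed clusters gave -0.17. That of miR-200a-3p over miR-141-3p in KO against WT of Pkd1 ran from -0.50 to -0.32. Arm ratios near 0 changed sign with 1 library left out: Mir200a (-0.10 to 0.023), Mir429 (-0.32 to 0.12, from counts too low to read), Mir200c (-0.30 to 0.016) and Mir141 (-0.047 to 0.24) in Pkd1, and Mir200b (-0.12 to 0.023), Mir200c (-0.062 to 0.12) and Mir141 (-0.16 to 0.063) in Pkd2; Mir429 in Pkd1 also with 5 reads added (0.047). Groups of 3 libraries limit what can be called: a design of 3 against 3 cannot go below p = 0.1 in a permutation test.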

Other observations

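Over the 36 libraries, the miRNA whose level was most alike to the mean log2 CPM of the 3p members was miR-26b-5p (Spearman's rho 0.855), followed by miR-146a-5p (0.849), let-7b-5p (0.807), miR-126a-3p (0.787, an endothelial miRNA) and miR-15a-5p (0.781). The median rho over the 316 candidates was 0.041. These are descriptions: the libraries share model, age and scaling, and levels of the family differed between the models.

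Within groups, the 3p arms did not move together by cluster alone. Deviations of log2 CPM from the group means over the 36 libraries correlated at Pearson's r = 0.87 for miR-200a-3p with miR-429-3p, neighbours on chromosome 4, but at 0.12 for miR-200a-3p with miR-200b-3p and 0.069 for miR-429-3p with miR-200b-3p, also of that cluster. For the 3p arms of the chromosome 6 cluster, miR-200c-3p with miR-141-3p, r was 0.58. Across chromosomes r was 0.76 for miR-141-3p with miR-200a-3p and 0.75 for miR-141-3p with miR-429-3p, and 0.42 for miR-200b-3p with miR-200c-3p. The points share scaling and miR-10 share within a library, and no test was made.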
